A study of Culter alburnus with 6 samples.

Results

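TCCF2022 is a cell line grown from the caudal fin of the topmouth culter (Culter alburnus), a freshwater food fish, and the 3 untreated control libraries of its transcriptome, named CK1, CK2 and CK3, are described here out of 6 libraries in the series. The members were chosen by their label alone, as the libraries whose cells received no Forskolin. The other libraries came from the same line grown with that compound, which raises cyclic AMP inside cells, and they enter no value given here. All 3 CK libraries were made from total RNA of wild-type fin cells labelled as fibroblasts, at day 7, in DMEM/F12 with 10% fetal bovine serum and 5 ng/ml of basic fibroblast growth factor, at 27 °C and 5% CO2, with part of the medium renewed every 3 days. All of them came from 1 cell line, and the study's methods name them biological replicates without saying whether they were separate cultures, so the spread between them may be partly technical. The dose of growth factor is that of the labels, and the study's methods give another one. Levels are in TPM, the share of a library's transcripts scaled to gene length and to a common total, so that levels of different genes can be set side by side. Values are given in the order CK1, CK2 and CK3, followed by their mean ± SD (n = 3).

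A teleost caudal fin is held up by bony rays, which osteoblasts deposit directly in the dermis without a cartilage model. Each ray encloses fibroblasts, blood vessels and nerves, and the whole fin is covered by a layered epidermis that also holds pigment cells. Fibroblasts are known for secreting fibrillar collagens, the small proteoglycans that bind them and the enzymes that remodel them. Keratins are intermediate filaments best known from epithelial cells, though not proof of an epithelial cell.

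The table held 61608 assembled genes, each a row of the table, of which 28797 (46.7%) carried a protein name. With a mean of at least 1 TPM taken as the lower limit, 41399 rows were present in the untreated cells, 22351 of them with a protein name. Of all named rows, 77.6% were at 1 TPM or more, 30.6% at 10 TPM or more and 4.07% at 100 TPM or more, and their median level was 3.54 TPM. The counts at 1 TPM or more were close in the 3 libraries (37031, 36010 and 36864 rows), and 24305 rows reached that level in each of them. The 100 most abundant rows held 32.5% of all TPM (33.4%, 33.1% and 31.1%), and all of them had a protein name. Rows without a protein name together held 8.98%, 9.06% and 10.6%. The depth of single libraries cannot be read from TPM values, so a row listed at 0 is reported as such and not as an absent transcript.

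The leading transcripts were those of secreted matrix, the cytoskeleton and protein synthesis. Osteopontin, the secreted phosphoprotein encoded by Spp1 that binds mineral and integrins, led the ranking at 16667, 14693 and 13081 TPM (14814 ± 1796). Its row had neither a Swiss-Prot gene name nor a KEGG name, so its identity rests on its protein name alone. Beta-actin, the main actin of non-muscle cells, came next at 14232, 13657 and 11085 TPM (12991 ± 1676), and the alpha-1 chain of type I collagen, the main fibrillar collagen of skin and bone, followed at 11161, 12894 and 13558 TPM (12537 ± 1238). Osteopontin and beta-actin were highest in CK1 and lowest in CK3, whereas Col1a1 had the opposite order. Polyubiquitin, the ubiquitin precursor, was at 11366, 12566 and 12012 TPM (11981 ± 601). An ictacalcin-like row, which KEGG assigned to the calcium-binding S100A4 family, was at 10040.4, 10419.7 and 12269 TPM (10909.6 ± 1192). These were the 5 rows with a mean above 10000 TPM, and within the 10 most abundant rows lay 9.93% of all TPM.

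Behind them stood cystatin C, a secreted inhibitor of cysteine proteases, at 10127, 9882 and 9484 TPM (9831 ± 324), and elongation factor 1-alpha 1, which brings aminoacyl-tRNA to the ribosome, at 8353, 8379 and 7569 TPM (8100.2 ± 460.2). Nicotinamide riboside kinase 2, which makes a precursor of NAD, was at 7536, 7112 and 6495 TPM (7048 ± 523). All of them were lowest in CK3. A row named after a bacterial regulator, RpiR, had rank 9 at 5760.0, 6086 and 6316 TPM (6054 ± 279). It had neither a Swiss-Prot gene name nor a KEGG name, so its identity is uncertain. Ribosomal proteins filled 17 of the 40 most abundant named rows and 50 of the 100 most abundant rows, and all 135 ribosomal protein rows together took 16.5%, 15.9% and 14.2% of TPM. The remaining places among the 40 included cathepsin L1, a lysosomal protease, keratins 18 and 8, Sparc, Mmp2, and the secreted chaperone clusterin at 3120.5, 3119.7 and 3164 TPM (3135 ± 25.3), which had the smallest spread of all 40. Annexin A2, which binds membranes in the presence of calcium, was at 2966, 2971 and 3279.9 TPM (3072 ± 179.8), and the RNA-binding Y-box protein Ybx1 at 2818, 2864 and 2927 TPM (2869.6 ± 54.5).

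The cells are labelled as fibroblasts, and of 20 markers of fibroblasts and mesenchyme 17 matched a row. The list was chosen with earlier results of these data known, so its levels are a description and not a check of that label. All 17 were at 10 TPM or more and 11 were at 100 TPM or more, with a median of 478 TPM, beside 3.54 TPM over all named rows. Each member is given by its highest row, whereas the median over named rows counts every row. Medians of lists and of named rows, here and below, are therefore not of like sets. Rows of Col1a1, Col6a1, Col1a2 and Col6a3 carried much of the list, which held 2.14%, 2.37% and 2.47% of TPM. Tcf21 matched no row, and rows with the Swiss-Prot names of Fap and Twist2 were left out because their protein names were those of dipeptidyl peptidase 4 and another Twist gene.

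Lumican, a small proteoglycan that spaces collagen fibrils, was at 1298, 1468 and 1558 TPM (1441 ± 132), and decorin, another of that family, was at 740.3, 915 and 993 TPM (883 ± 129). Both were lowest in CK1 and highest in CK3. Thy1, a surface glycoprotein widely used to recognise fibroblasts, was at 533, 468 and 433 TPM (478 ± 51.0), in the reverse order. The homeobox gene Prrx1, which marks limb and fin mesenchyme, was at 464, 426 and 435 TPM (442 ± 19.6), so a transcription factor stood at the level of abundant structural genes. S100a10, the partner of annexin A2, was at 1258, 1190.2 and 1279 TPM (1242 ± 46.2).

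Receptors of platelet-derived growth factor, which drives fibroblast growth, were lower than the matrix genes. Pdgfra was at 46.1, 52.2 and 54.4 TPM (50.9 ± 4.28) and Pdgfrb at 23.2, 23.9 and 22.5 TPM (23.2 ± 0.71), with a ratio of 1.99, 2.18 and 2.42. Periostin, a matrix protein of periosteum and wounds, was at 18.8, 19.8 and 21.1 TPM (19.9 ± 1.17). The lowest of the 17 markers was vimentin, the intermediate filament of mesenchymal cells, at 5.52, 12.5 and 16.6 TPM (11.6 ± 5.62), which differed about 3 times between CK1 and CK3. Vimentin matched 2 rows, which summed to a mean of 21.1 TPM. Keratin 8, described next, was more than 100 times that sum on average.

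Among 19 markers of epidermis and epithelium, 11 matched a row, all 11 at 1 TPM or more and 4 at 100 TPM or more, with a median of 29.4 TPM. Over all lists, 619 of 654 matched members were at 1 TPM or more. A count near that share, here and in the lists below, does not set a list apart. Keratin 18, a type I keratin of simple epithelia, was at 3586, 3456 and 3440.1 TPM (3494 ± 80.1), and keratin 8, its type II partner, at 2869.8, 2911 and 2808 TPM (2863 ± 51.6). The ratio of these 2 rows was 1.25, 1.19 and 1.22, so they stayed in nearly fixed proportion. Keratin 18 matched 3 rows, which summed to a mean of 4210 TPM, and the ratio uses only its highest row. Keratin 4, a type II keratin of stratified epithelia, was at 1291, 1268 and 1276 TPM (1278 ± 11.7). Together the 11 markers took 0.802%, 0.792% and 0.781% of TPM, nearly the same share in each library.

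Junction genes of epithelia were present at lower levels. Plakophilin 3, a desmosomal plaque protein, was at 119, 134 and 137 TPM (130.1 ± 9.38), and the adhesion molecule Epcam at 90.5, 83.7 and 77.2 TPM (83.8 ± 6.64). Desmoplakin, which ties keratin filaments to desmosomes, was at 25.3, 29.3 and 33.7 TPM (29.4 ± 4.20), and its 2 rows summed to 47.4 TPM. Epcam was highest in CK1 and the desmosomal genes in CK3. Tp63, the transcription factor of basal epidermal cells, was at 6.36, 5.66 and 6.97 TPM (6.33 ± 0.66). Krt5, Cldn1, Cldn7, Cldni, Grhl1, Esrp1 and Ovol1 matched no row, and the row with the Swiss-Prot name of Cdh1 (E-cadherin), listed at 0, was left out because its protein name was neural cadherin. These values come from RNA of whole cultures, in which fewer cells of a type and less RNA per cell cannot be told apart. The measurements therefore show markers of fibroblasts and simple-epithelial keratins in the same libraries, with vimentin low, and do not show whether the same cells carried both.

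Of 18 osteoblast and mineralization markers, 15 matched a row, all at 1 TPM or more. Of these 15, 12 were at 10 TPM or more and 4 at 100 TPM or more, with a median of 32.5 TPM. Over all lists 654 of 896 members matched, 619 of them at 1 TPM or more, so the first counts do not set this list apart. Counted row by row, 30.6% of all named rows were at 10 TPM or more and 4.07% at 100 TPM or more. Osteopontin, identified by its protein name alone, set most of the 2.03%, 1.88% and 1.77% of TPM that the list took. Sparc (osteonectin), a collagen- and calcium-binding glycoprotein, was at 3095, 3338 and 3502 TPM (3312 ± 204). The ratio of osteopontin to Sparc was 5.38, 4.40 and 3.74, since one was highest in CK1 and the other in CK3.

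The transcription factors that direct osteoblast differentiation were both present. Runx2 was at 233, 247 and 283 TPM (254 ± 25.8), and Sp7 (osterix), which acts after Runx2, was at 22.5, 36.1 and 47.8 TPM (35.4 ± 12.7). Both were lowest in CK1 and highest in CK3, Sp7 more steeply, and their ratio was 10.4, 6.84 and 5.92. That ratio uses the highest row of each gene, and the 2 Runx2 rows summed to a mean of 368 TPM. Type X collagen, which in teleosts is made by osteoblasts as well as by hypertrophic chondrocytes, was at 75.8, 294 and 559 TPM (309.8 ± 242), the largest SD relative to its mean among the list's members at 100 TPM or more. Another row that KEGG assigned to type X collagen, noticed after its values were seen, was at 156, 420.2 and 633 TPM (403 ± 239.2) and had the same order.

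Some enzymes of mineral deposition showed that order too. Phospho1, a phosphatase that frees phosphate in matrix vesicles, was at 12.97, 24.3 and 35.2 TPM (24.2 ± 11.1), and the endopeptidase Phex at 6.02, 12.6 and 18.4 TPM (12.4 ± 6.21). Tissue-nonspecific alkaline phosphatase (Alpl), which breaks down the mineralization inhibitor pyrophosphate, was at 53.8, 55.1 and 60.1 TPM (56.3 ± 3.31), a far smaller spread. Enpp1, which makes pyrophosphate, was highest in CK1 at 62.5, 55.2 and 53.1 TPM (56.9 ± 4.97). The membrane protein Ano5 was at 31.2, 33.0 and 33.4 TPM (32.5 ± 1.15) and Entpd5, a nucleotide phosphatase required for mineralization in zebrafish, at 13.2, 16.6 and 16.6 TPM (15.4 ± 1.99). Bmp2, a ligand that induces osteoblasts, was at 21.9, 28.8 and 32.4 TPM (27.7 ± 5.35), whereas Bmp4 was at 2.61, 2.63 and 3.79 TPM (3.01 ± 0.68). Osteocalcin (Bglap), a protein of mature bone, was low and uneven at 2.26, 0.64 and 7.52 TPM, and matrix Gla protein (Mgp), an inhibitor of calcification, was at 3.81, 4.74 and 6.49 TPM (5.01 ± 1.36). The bone matrix genes Ibsp and Dmp1, and Ostc, matched no row.

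The list of 18 fin and fin-ray mesenchyme markers had 12 matched members, all at 1 TPM or more, with a median of 27.6 TPM. Midkine a (Mdka), a heparin-binding growth factor, was the most abundant at 277, 261 and 278 TPM (272 ± 9.38). Twist3, a basic helix-loop-helix factor of mesenchyme, was at 171, 168 and 173 TPM (171 ± 2.53), and a homeodomain row of the msx family, counted as Msx1, was at 92.3, 94.8 and 99.4 TPM (95.5 ± 3.59). Msx genes are known for their activity in the fin blastema of zebrafish. These rows changed little from library to library. The posterior Hox genes Hoxa13 and Hoxc13, which pattern the far ends of fins and limbs, were at 40.4, 44.8 and 42.9 TPM (42.7 ± 2.17) and 32.5, 35.1 and 32.8 TPM (33.4 ± 1.43).

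Connexin 43 (Gja1), the gap junction protein that governs the length of ray segments in zebrafish, was at 35.1, 42.6 and 45.2 TPM (41.0 ± 5.23). Dlx5, a homeobox gene of bone and appendages, was at 17.2, 21.0 and 26.8 TPM (21.7 ± 4.82), and the short-stature homeobox gene Shox at 11.6, 10.7 and 13 TPM (11.8 ± 1.15). Fgf10, the ligand that starts fin and limb buds, was close to the lower limit at 1.94, 3.15 and 3.79 TPM (2.96 ± 0.94), as was the retinoic acid-making enzyme Aldh1a2 at 0.83, 2.30 and 0.95 TPM (1.36 ± 0.82). No row carried the name of the actinodin genes And1, And2 or And3, which build the unmineralized fibres at the fin tip, nor of Tph1, Hoxd13 or Tbx5.

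Cartilage markers were uneven in level. Only 8 of 16 matched a row, 7 of them at 1 TPM or more and 4 at 10 TPM or more, with a median of 18.05 TPM. Sox9, the master regulator of chondrocytes, was at 49.0, 49.5 and 53.0 TPM (50.5 ± 2.19), yet its classical target Col2a1, the collagen of cartilage, was at 1.28, 1.44 and 1.72 TPM (1.48 ± 0.22) in its highest row and 7.27 TPM over 6 rows. Col11a1, a minor fibril-forming collagen, was at 83.2, 86.1 and 99.0 TPM (89.4 ± 8.45). The link protein Hapln1 was at 30.9, 40.1 and 46.8 TPM (39.3 ± 7.999), and the joint lubricant Prg4 at 27.8, 28.9 and 35.4 TPM (30.7 ± 4.12). Those 4 members at 10 TPM or more were each highest in CK3. Col9a1 was listed at 0 in CK1 and CK2 and at 16.2 TPM in CK3, so its mean rested on 1 library. Aside from rows left out for a doubtful or different protein name, Acan (aggrecan), Sox5, Matn1, Matn3, Comp, Chad, Gdf5 and Evx1 matched no row.

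Contractile markers were present in part. Of 16 smooth muscle and myofibroblast markers, 11 matched a row, with a median of 17.4 TPM. The row counted as smooth muscle actin (Acta2) was at 2406, 1827 and 1359 TPM (1864 ± 525), but its best protein match was a hypothetical protein and reads can be split between nearly identical actins, so its level is uncertain. It was highest in CK1, and the ratio of beta-actin to it was 5.91, 7.48 and 8.16. Fhl1, a LIM-domain protein of muscle and other cells, was at 578, 591 and 617 TPM (595 ± 20.2), and Ccn2 (connective tissue growth factor) at 128, 134 and 120.0 TPM (128 ± 7.26).

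Of the markers more particular to smooth muscle, some were low. Calponin 1 (Cnn1) was at 10.4, 5.10 and 3.18 TPM (6.22 ± 3.73), with the CK1 value about 3 times that of CK3. Smooth muscle myosin Myh11 was at 1.26, 3.01 and 3.59 TPM (2.62 ± 1.21), and desmin, the intermediate filament of muscle, at 0.84, 1.53 and 1.18 TPM (1.18 ± 0.35). Myl9, Tpm2 and Actg2 matched no row. Rows with the Swiss-Prot names of Tagln and Tpm1 were abundant, at 895, 834 and 817 TPM and 678, 544 and 553 TPM, but their protein names were transgelin 2 and tropomyosin 4b, so they were counted among actin cytoskeleton genes and not here. Of 9 pericyte markers, 7 matched, and 3 were at 10 TPM or more, namely the proteoglycan Cspg4 at 62.1, 61.5 and 64.9 TPM (62.8 ± 1.79), Notch3 at 34.0, 40.1 and 41.4 TPM (38.5 ± 3.96) and the forkhead factor Foxc1 at 25.2, 26.7 and 27.5 TPM (26.5 ± 1.18). The pericyte gene Rgs5 was at 0.06, 0.06 and 0.37 TPM, and the potassium channel gene Kcnj8 was listed at 0 in all 3 libraries.

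Few skeletal muscle markers could be looked up by name, and only 3 of 17 matched a row. Matching went mostly by Swiss-Prot gene name, which most rows lacked, so a missing name does not show a missing transcript. Mef2c, a transcription factor used by muscle and by other mesenchymal cells, was at 67.8, 71.3 and 80.2 TPM (73.1 ± 6.39), cardiac actin (Actc1) at 6.54, 3.63 and 4.77 TPM (4.98 ± 1.47), and the highest titin row was listed at 8.65, 0 and 0 TPM. Titin matched 19 rows, which summed to a mean of 20.4 TPM. No row had the Swiss-Prot name of Myod1, Myog, Myf5, Myf6, Pax3 or Pax7, the factors that specify muscle, nor of Ckm, Tnnt3, Tnnc2, Mylpf, Ryr1, Casq1, Mb or Mymk. A row whose best protein match was named Myogenic factor 6, but which had no Swiss-Prot gene name and was not counted, was noticed after its values were seen, at 55.1, 11.01 and 49.9 TPM. Adipocyte markers had 9 of 12 members matched and a median of 7.80 TPM. Lipoprotein lipase (Lpl) was at 26.5, 25.5 and 29.3 TPM (27.1 ± 1.97), and the fatty acid carrier Fabp4 at 27.04, 23.5 and 18.2 TPM (22.9 ± 4.43). Cebpa, a factor of fat cell differentiation, was at 11.4, 11.4 and 12.1 TPM (11.6 ± 0.42), whereas its partner Pparg was at 1.11, 0 and 0 TPM. Adipoq, Fabp11 and Retn matched no row.

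The medians of the endothelial (2.55 TPM), leukocyte (1.66 TPM), neuron (0.997 TPM) and pigment (3.38 TPM) lists were below the 3.54 TPM of all named rows, and that of the glia list was 4.99 TPM. Of 13 endothelial markers, 5 matched and none reached 10 TPM. Kdr and Flt4, receptors of vascular endothelial growth factor, led them at 9.35, 8.59 and 8.55 TPM (8.83 ± 0.45) and 8.35, 7.36 and 7.06 TPM (7.59 ± 0.68), and no row carried the name of Cdh5, Pecam1, Tek, Tie1, Flt1, Etv2, Vwf or Esam. The endothelial median was the value of the highest Plvap row, listed at 0, 7.66 and 0 TPM. Egfl7 was listed at 0, 4.94 and 0 TPM, so both rested on CK2 alone. All rows of Plvap summed to a mean of 4.93 TPM, and those of Ltk, a pigment list member, to 8.12 TPM. These sums lie above 3.54 TPM, so the place of the endothelial and pigment medians depends on using the highest row. Of 17 leukocyte and blood markers, 5 matched and none reached 5 TPM, with the invariant chain gene Cd74 highest at 4.14, 4.18 and 3.25 TPM (3.86 ± 0.53). Hemoglobin beta (Hbb) was at 2.07, 0.38 and 0.89 TPM. No row carried the name of Ptprc, Csf1r, Spi1, Coro1a, Mpx or Gata1.

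Of 15 neuron markers, 4 matched and 2 were at 1 TPM or more, led by stathmin 2 (Stmn2) at 3.07, 2.23 and 1.76 TPM (2.35 ± 0.66). A row whose best protein match was named neurogenic differentiation factor 2, with the Swiss-Prot name hlh-13, was not a list member. It was noticed after its values were seen, at 1900, 1876 and 1850 TPM (1876 ± 25.2), and its identity is uncertain. Glial markers had 6 of 10 members matched. Pmp22, a membrane protein of myelin that many other cells also make, was at 150.1, 153 and 142 TPM (148 ± 5.39), and myelin basic protein (Mbp) at 19.1, 20.9 and 19.2 TPM (19.7 ± 1.03), while Gfap was at 1.41, 1.53 and 1.40 TPM (1.45 ± 0.07).

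Pigment and neural crest markers had 8 of 16 members matched. Foxd3, a neural crest transcription factor, was at 37.5, 34.1 and 29.6 TPM (33.7 ± 3.95), and Gch1, the first enzyme of pteridine synthesis, at 24.1, 27.9 and 31.2 TPM (27.8 ± 3.56). These were the only members at 10 TPM or more. Mitf, the factor of melanocytes, was at 1.92, 2.11 and 1.88 TPM (1.97 ± 0.12). The endothelin receptor Ednrb ran from 0 in CK1 to 20.6 TPM in CK3, and the leukocyte tyrosine kinase receptor Ltk was listed at 8.47 TPM in CK1 and at 0 in the others. No row carried the name of Sox10, the factor shared by pigment cells and glia, nor of Dct, Tyr, Pmel, Oca2 or Kit.

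The study followed pluripotency genes in these cells, and 22 pluripotency and germ line markers were looked up. It detected Sox2, Nanog, Oct4 and Klf4 by RT-PCR in this line without Forskolin. The authors annotated those genes themselves, since annotation of the genome was incomplete. The cells used for RT-PCR were of an earlier passage than those compared by qRT-PCR with and without Forskolin. The study reports that spontaneous aggregation of the cells weakened and was lost with passage. It does not give the passage of the CK libraries, so the RT-PCR may not describe like cells. Only 7 of the 22 markers matched a row, 5 of them at 1 TPM or more. Their median was 1.61 TPM, below the 3.54 TPM of all named rows. Klf2, a Krueppel-like factor found in many cell types, was highest at 61.3, 55.5 and 54.8 TPM (57.2 ± 3.57), followed by the growth regulator Myc at 27.5, 30.1 and 34.6 TPM (30.7 ± 3.61). Both matched several rows, which summed to means of 113 TPM for Klf2 and 99.8 TPM for Myc. Such rows can be those of paralogs, so a sum need not be the level of 1 gene. Klf4 was at 1.75, 1.77 and 1.97 TPM (1.83 ± 0.12), close to the lower limit in each library. Klf5 was at 1.05, 1.33 and 0.80 TPM (1.06 ± 0.27), and telomerase reverse transcriptase (Tert) at 2.70, 2.12 and 0 TPM. Piwil1, a germ line gene, was at 0.99, 0 and 1.31 TPM and Sall4, a zinc finger gene of stem cells, at 0.44, 0.47 and 0.45 TPM. No row carried the name of Sox2, Nanog, Pou5f3 (the fish Oct4 gene), Lin28a, Lin28b, Prdm14, Dnd1, Nanos3, Ddx4 or Dazl. Members were matched by Swiss-Prot gene name, which only 16614 of the 61608 rows carried, so a missing name does not show a missing transcript.

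**Figure D1:**
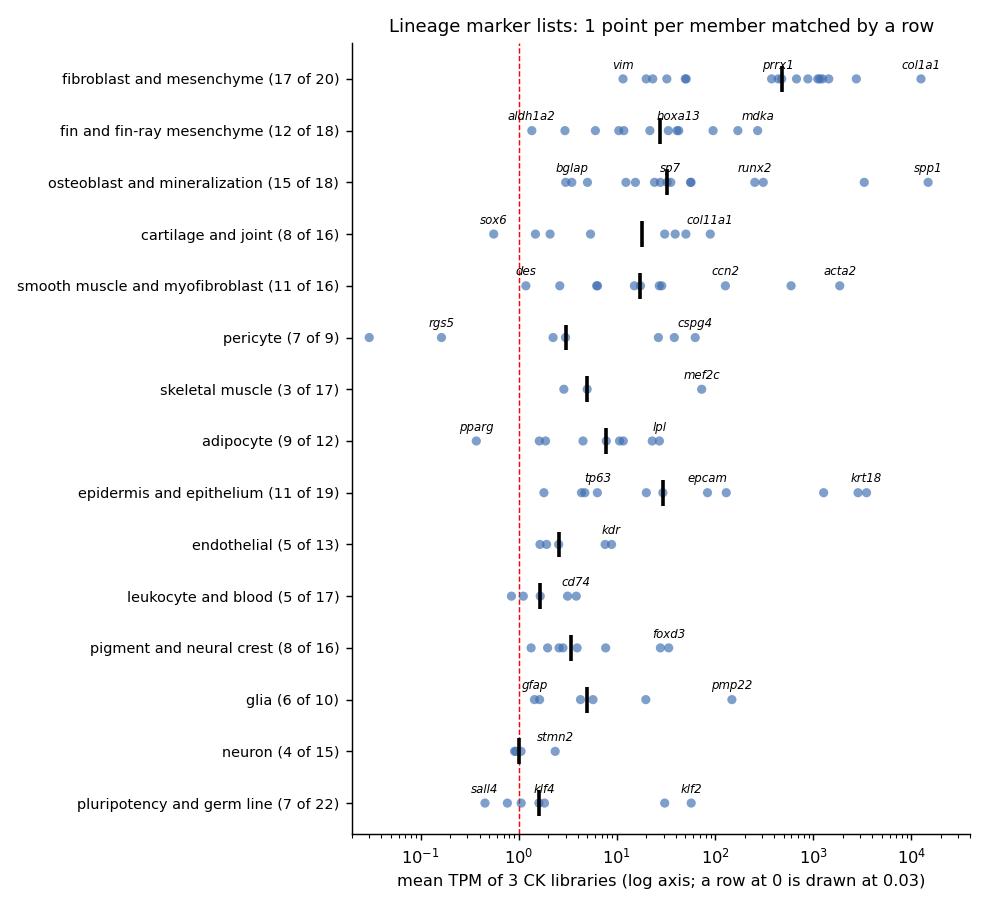
Mean TPM of each matched member of the 15 lineage lists in the 3 untreated libraries, on a log axis, with 1 line per list, black bars at the list medians and a dashed line at 1 TPM. Fibroblast markers centre on 478 TPM, osteoblast and epithelial markers on 32.5 and 29.4 TPM, and neuron and pluripotency markers on 0.997 and 1.61 TPM.

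The secreted matrix was led by collagens of types I and VI. Of 31 collagen chains, 28 matched a row, 27 at 1 TPM or more and 8 at 100 TPM or more, with a median of 10.6 TPM. Col1a2, the partner chain of type I collagen, was at 1155, 1129 and 1209 TPM (1164 ± 40.8). The ratio of Col1a1 to Col1a2 was 9.66, 11.4 and 11.2 (10.8 ± 0.961). The chains of type VI collagen, which forms beaded filaments around cells, were more alike. Col6a1 was at 2463, 2876 and 2917 TPM (2752 ± 251), Col6a2 at 1152, 1310.0 and 1421 TPM (1294 ± 135) and Col6a3 at 1024, 1116 and 1198 TPM (1113 ± 87.1). Col6a3 matched 10 rows, which summed to 1661 TPM.

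Col5a1, which starts type I fibrils, was at 389.5, 361 and 380.4 TPM (377 ± 14.8), and Col8a2, a short-chain collagen of basement membranes, at 419.9, 386 and 416 TPM (407 ± 18.5). A further row named collagen alpha-1(I) chain was left out of these counts, since its Swiss-Prot match was a yeast protein of another kind, and it was at 1761, 1068 and 1297 TPM (1375 ± 353). Chains of type IV collagen, the network of basement membranes, were low, with Col4a1 at 5.91, 2.01 and 3.95 TPM (3.96 ± 1.95). Col4a1 was singled out after its value was seen. All 61 collagen rows together took 1.88%, 2.14% and 2.29% of TPM, lowest in CK1 and highest in CK3.

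Among genes whose products fold and crosslink collagen, 27 of 29 matched a row, 26 at 1 TPM or more, with a median of 74.3 TPM. Over all lists the count at that level was 619 of 654 matched members. Ppib, a proline isomerase of the endoplasmic reticulum, was at 1679, 1541 and 1483 TPM (1568 ± 101), and Serpinh1 (Hsp47), the collagen-specific chaperone, at 398, 443 and 439 TPM (427 ± 24.96). The prolyl hydroxylase subunits P4ha1 and P4hb were at 247, 222 and 218 TPM (229 ± 16.02) and 338, 318 and 346 TPM (334 ± 14.1). Pcolce, which speeds removal of the procollagen C-propeptide, was at 678, 639 and 598 TPM (638 ± 40.1). Its relative Pcolce2 was highest in CK1 at 261, 163 and 127 TPM (184 ± 69.4), a wider spread than the other named members of the list.

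Matrix glycoproteins had 41 of 49 members matched and a median of 49.8 TPM. Behind osteopontin and Sparc stood Efemp2 (fibulin 4), which is needed for elastic fibres, at 2198, 1956 and 1742 TPM (1965 ± 228). Fibronectin (Fn1), the adhesive glycoprotein of early matrix, was at 773, 677 and 578 TPM (676 ± 97.2). Both were highest in CK1. Ccn1 (Cyr61) was at 522, 564 and 521 TPM (536 ± 24.8), and the basement membrane protein nidogen 2 (Nid2) was lowest in CK1 at 409, 514 and 554 TPM (493 ± 74.9). Fibronectin matched 12 rows.

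Among 32 proteoglycans, 26 matched a row, with a median of 24.2 TPM. Biglycan (Bgn), a small proteoglycan of bone and tendon, was at 65.7, 142 and 210.4 TPM (139 ± 72.4), about 3 times as high in CK3 as in CK1, and its rows summed to 249.9 TPM. Glypican 1 (Gpc1), a lipid-anchored coreceptor, was at 537, 574 and 607 TPM (573 ± 34.9). The transmembrane syndecans Sdc2 and Sdc4 were at 127, 122 and 129.6 TPM (126 ± 3.67) and 121, 124 and 130.2 TPM (125 ± 4.87), with little spread. Lumican, decorin, biglycan and glypican 1 shared the order CK1, CK2, CK3 from lowest to highest.

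Among matrix proteases and their inhibitors, cathepsins and Mmp2 were abundant. Of 37 proteases and inhibitors, 26 matched a row and 21 were at 10 TPM or more, with a median of 58.2 TPM. Cathepsin L (Ctsl) led them at 4815, 5108 and 4775 TPM (4899 ± 182), and cathepsin K (Ctsk), a collagen-degrading enzyme best known from osteoclasts, was at 1409, 1727 and 1893 TPM (1676 ± 246). The lysosomal cathepsins Ctsd and Ctsb were at 1633, 1933 and 1976 TPM (1847 ± 187) and 859, 1023 and 1076 TPM (986 ± 113). Cathepsins B, D and K were each lowest in CK1. Mmp2 (gelatinase A) was at 2751, 2877 and 2977 TPM (2868 ± 113), and its inhibitor Timp2 at 1286, 716 and 644 TPM (882 ± 352). Timp2 in CK1 lay well above the other libraries, so that the ratio of Mmp2 to Timp2 was 2.14, 4.02 and 4.62. These values are those of the more abundant Timp2 row, and both Timp2 rows summed to a mean of 1673 TPM.

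The actin cytoskeleton was among the most strongly expressed programs, with 36 of 44 members matched, 30 at 10 TPM or more and a median of 164 TPM. Cofilin 1 (Cfl1), which severs actin filaments, was at 1848, 1736 and 1774 TPM (1786 ± 57.05), and a thymosin row counted as Tmsb4x, of a family that stores actin monomers, at 1899.6, 1625 and 1470.1 TPM (1665 ± 218). Non-muscle myosin heavy chain 9 (Myh9) was at 1280.5, 1093 and 991 TPM (1122 ± 147), and transgelin 2 (Tagln2) at 895, 834 and 817 TPM (849 ± 41.4). All 4 were highest in CK1. Tubulins and intermediate filaments had 19 of 26 members matched. Tuba1a was at 1966, 1889 and 1742 TPM (1866 ± 114), Tuba1c at 561, 563 and 496 TPM (539.9 ± 38.3) and Tubb4b at 446, 421 and 389 TPM (419 ± 28.4), though close tubulin paralogs can share reads.

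Cell-matrix adhesion genes had 28 of 32 members matched, with a median of 32.1 TPM. The integrin subunits Itgb5 and Itgav, which pair as a vitronectin receptor, were at 327, 328 and 328 TPM (328 ± 0.94) and 112, 110.4 and 122 TPM (115 ± 6.24). Itgb5 was the steadiest of these rows. Tensin 2 (Tns2), which links integrins to actin, was at 177, 195 and 200.5 TPM (191 ± 12.4), cavin 1 (Cavin1), a coat protein of caveolae, at 192, 167 and 171 TPM (177 ± 13.5), and the focal adhesion adaptor Lims1 at 154, 145 and 137 TPM (145 ± 8.27). A row named integrin alpha-M-like was at 368, 427 and 466 TPM (420.4 ± 49.7). The leukocyte subunit Itgb2, with which alpha-M pairs, was listed at 0 in all 3 libraries, so that row's name may not give its identity.

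Signaling genes had lower levels, with medians between 4.26 and 25.9 TPM in the 6 lists that follow. The medium held basic fibroblast growth factor, and of 25 genes of the FGF system 17 matched, with a median of 4.26 TPM. Fgfr1, the receptor with the highest level, was at 88.3, 86.3 and 79.2 TPM (84.6 ± 4.74), and the ligand Fgf2 at 11.2, 9.98 and 9.86 TPM (10.3 ± 0.73). The feedback inhibitors Spry4, Spry2 and Dusp6, targets of FGF signaling, were at 13.5, 16.1 and 15.9 TPM (15.2 ± 1.41), 6.88, 8.34 and 8.38 TPM (7.87 ± 0.85) and 8.63, 10.5 and 11.4 TPM (10.2 ± 1.44). Each of them was lowest in CK1. The FGF-binding protein Fgfbp2 was far above the rest at 235, 442 and 505 TPM (394 ± 141), and lowest in CK1.

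The TGF-beta and BMP system had 39 of 43 members matched, 35 at 1 TPM or more, and a median of 16.4 TPM. Among ligands, Tgfb2 was at 210.4, 217 and 238 TPM (222 ± 14.3) and Tgfb1 at 93.8, 88.1 and 97.1 TPM (93.0 ± 4.53). The secreted modulators Fstl1 and Bmper were at 676, 669 and 692 TPM (679 ± 11.7) and 92.7, 102 and 106 TPM (99.9 ± 6.59). Id1 and Id2, targets of BMP signaling that block basic helix-loop-helix factors, were at 237, 263 and 263 TPM (255 ± 15.1) and 95.8, 99.8 and 92.6 TPM (96.0 ± 3.60). These rows lay within a narrow range in the 3 libraries.

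The Wnt system had 39 of 52 members matched and a median of 4.84 TPM. Beta-catenin (Ctnnb1), its intracellular effector and a junction protein, was at 581, 646 and 631 TPM (619 ± 33.8). Secreted antagonists filled the next places. Dkk3 was at 527, 490.4 and 474 TPM (497 ± 27.2), Wif1 at 204, 249.8 and 272 TPM (242 ± 34.4) and Sfrp2 at 182, 253 and 254 TPM (229.5 ± 41.3). Wif1 and Sfrp2 were lowest in CK1, and Dkk3 was highest there. The receptor Fzd6 was at 33.6, 35.2 and 32.5 TPM (33.8 ± 1.34) and the transcription factor Tcf7l2 at 79.5, 74.8 and 75.2 TPM (76.5 ± 2.62).

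Notch genes had 17 of 23 members matched, all at 1 TPM or more, with a median of 25.9 TPM. The hairy-related genes Heyl, Her9 and Hey1, transcriptional repressors, were at 118, 145 and 169 TPM (144 ± 25.4), 78.7, 88.5 and 87.8 TPM (85.0 ± 5.49) and 42.9, 58.8 and 60.4 TPM (54.0 ± 9.65). The ligand Dld was at 60.4, 75.1 and 87.3 TPM (74.3 ± 13.5), and Lfng, a glycosyltransferase that modifies Notch, at 59.6, 69.2 and 77.8 TPM (68.9 ± 9.07). All 5 were lowest in CK1. Nrarp, a feedback inhibitor, had the opposite order at 46.2, 45.4 and 37.8 TPM (43.1 ± 4.63).

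Hedgehog and retinoic acid genes had 21 of 31 members matched, all at 1 TPM or more, with a median of 13.4 TPM. Crabp2, the carrier that delivers retinoic acid to its receptors, was at 714, 639 and 672 TPM (675 ± 37.7), and Cyp26b1, which breaks retinoic acid down, at 60.8, 48.9 and 48.6 TPM (52.8 ± 6.97). The receptors Rarg and Rxrb were at 62.0, 62.7 and 65.2 TPM (63.3 ± 1.64) and 102, 83.5 and 100.2 TPM (95.1 ± 10.1). Indian hedgehog (Ihh), a ligand of bone-forming tissue, was at 62.0, 83.9 and 97.4 TPM (81.1 ± 17.9), again lowest in CK1. Among 47 other growth factor ligands and receptors, 31 matched, and stanniocalcin 2 (Stc2), a secreted glycoprotein, stood apart at 1849, 1839 and 1919 TPM (1869 ± 43.4). Hbegf, a ligand of the epidermal growth factor receptor, was at 96.6, 109 and 124 TPM (110.0 ± 13.7), and the coreceptors Nrp1 and Nrp2 were at 56.0, 54.9 and 52.8 TPM (54.6 ± 1.58) and 55.7, 51.6 and 46.3 TPM (51.2 ± 4.71).

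Genes of proliferation were present at moderate levels. Of 36 cell cycle genes 35 matched, 34 at 1 TPM or more, 22 at 10 TPM or more and none at 100 TPM or more, with a median of 14.3 TPM. Pcna, the sliding clamp of DNA polymerase, was at 59.6, 55.3 and 49.1 TPM (54.7 ± 5.28), and the ribonucleotide reductase subunits Rrm1 and Rrm2 were at 50.5, 46.3 and 48.0 TPM (48.3 ± 2.13) and 35.3, 33.1 and 32.5 TPM (33.6 ± 1.503). Cdk1, the kinase of mitosis, was at 35.4, 32.3 and 31.4 TPM (33.0 ± 2.13) and its partner cyclin B1 (Ccnb1) at 36.4, 26.5 and 23.4 TPM (28.7 ± 6.78). These were highest in CK1, while cyclin D2 (Ccnd2), which acts early in the cycle, was highest in CK3 at 34.1, 40.8 and 45.1 TPM (39.98 ± 5.54).

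Stress genes had 26 of 31 members matched and a median of 56.0 TPM. The constitutive chaperones Hspa8 and Hsp90ab1 were at 3382, 3379.7 and 3232 TPM (3331 ± 86.0) and 1131, 1121 and 1086 TPM (1113 ± 23.7). Atf4, a transcription factor of the integrated stress response, was at 363, 365 and 359.5 TPM (363 ± 2.97), and cyclin G1 (Ccng1), a target of p53, at 626, 559.9 and 562 TPM (583 ± 37.6). Of 37 inflammation genes 20 matched, with a median of 10.5 TPM. Serum amyloid A (Saa), an acute-phase protein, was at 875, 892 and 689.6 TPM (819 ± 112), and interleukin 34 (Il34), a ligand of the macrophage receptor Csf1r, at 203, 209 and 213 TPM (208 ± 5.03). The cytokine genes Il1b, Il6, Tnf and Il10 matched no row.

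The translation list, which also held polyubiquitin, had 22 of 24 members matched, all at 10 TPM or more. Its median of 531 TPM was the highest of the 36 lists. The elongation factor Eef2 was at 3260.4, 3277 and 2990.2 TPM (3176 ± 161), and the ribosomal scaffold Rack1 at 1743, 1722 and 1494 TPM (1653 ± 138). The secretory pathway had 25 of 27 members matched and a median of 183 TPM. Sec61b, part of the channel into the endoplasmic reticulum, was at 902, 852 and 895 TPM (883 ± 27.1). The foldase Pdia3 was at 891, 862 and 866 TPM (873 ± 15.4) and the chaperone Calr at 542, 547 and 574 TPM (554 ± 17.2).

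Glycolytic enzymes had 19 of 26 members matched, with a median of 219 TPM, led by Gapdh at 756, 723 and 651 TPM (709.9 ± 53.7). Lactate dehydrogenase B (Ldhb) was at 375, 389 and 398 TPM (388 ± 11.7). Lipid and sterol genes had 27 of 29 members matched, all at 1 TPM or more, with a median of 71.5 TPM. Apolipoprotein E (Apoe), a lipid carrier, was at 2462, 2999 and 3084 TPM (2848 ± 337), lowest in CK1. The desaturases Scd and Fads2 were at 337, 319 and 302 TPM (319 ± 17.5) and 342, 307 and 315 TPM (321 ± 18.6). Both were highest in CK1.

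Agreement between the libraries depended on the level of a row. The coefficient of variation (CV, the SD divided by the mean of the 3 libraries) had a median of 0.741 among rows with a mean of 1 to 2 TPM, 0.127 at 5 to 20 TPM and 0.0630 at 20 to 100 TPM, and was 0.0692 for the 129 rows at 1000 TPM or more. Over all rows at 1 TPM or more the median CV was 0.343, with 0.139 for named rows and 0.763 for rows without a protein name. At a mean of 20 TPM or more, 97.9% to 98.6% of 6032 rows lay within 2-fold between any pair of libraries. Across those rows, which are not independent replicates, Pearson's r of log2(TPM + 1) was 0.98 between CK1 and CK2 and 0.97 for each of the other pairs. Of the 5521 named rows at that level, 4262 had a CV under 0.1 and 188 a CV over 0.3.

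**Figure D2:**
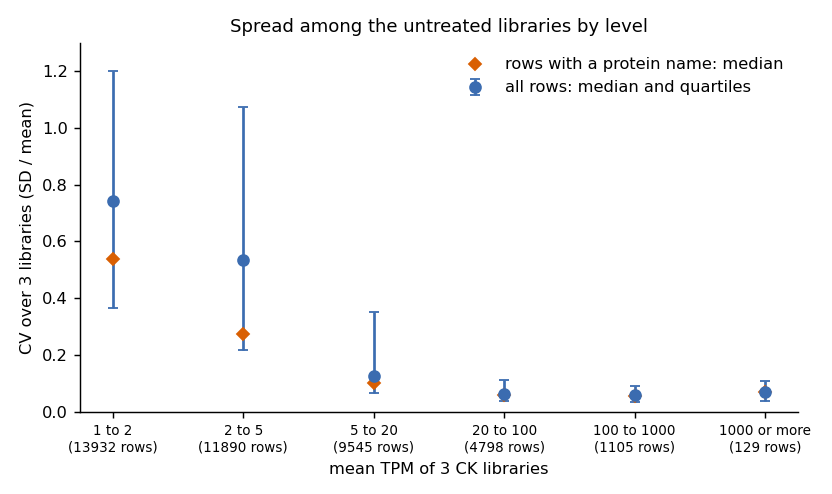
CV over the 3 untreated libraries (SD divided by mean, no unit) for rows in 6 ranges of mean TPM, with the median and quartiles of all rows as circles and bars and the median of named rows as diamonds. The median CV of all rows is 0.741 at 1 to 2 TPM and 0.0630 at 20 to 100 TPM.

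The 15 named rows with the largest CV at a mean of 20 TPM or more had CVs of 0.783 and above, and the largest mean among them was 38.0 TPM. Only 3 of them had a Swiss-Prot gene name, 7 were hypothetical or uncharacterized proteins and 3 were zinc finger proteins. Of the 15, 9 were highest in CK3, 4 in CK1 and 2 in CK2. The first, a hypothetical protein, was listed at 0 in CK1 and CK2 and at 97.4 TPM in CK3. A row that KEGG assigned to Fgfr1 but that was not the main Fgfr1 row was at 4.32, 10.99 and 57.0 TPM, again high in CK3 alone.

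A row named eukaryotic translation initiation factor 2 subunit 2 was at 20.7, 45.1 and 0 TPM, and one named apolipoprotein B-100 was listed at 30.7, 0 and 39.6 TPM. A thioesterase row with the Swiss-Prot name Acot1, an enzyme that cleaves acyl-CoA, was high in CK2 at 8.98, 68.3 and 26.2 TPM. A row named C-Jun-amino-terminal kinase-interacting protein 1 was high in CK1 at 61.5, 8.32 and 32.2 TPM. The row with the Swiss-Prot name Sned1, a matrix protein, ran upward to CK3 at 5.93, 14.8 and 42.5 TPM.

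Small differences between libraries were shared by members of a list. Over all 5521 named rows at 20 TPM or more, 34.5% were highest in CK1, 24.4% in CK2 and 41.1% in CK3, and the median log2 difference of CK3 minus CK1 was 0.01. Collagen chains were highest in CK3 for 10 of 12 members at that level, with a median log2 difference of 0.27, and proteoglycans for 12 of 14, with 0.25. Osteoblast markers were highest in CK3 for 8 of 10 members (0.23), and Notch genes for 8 of 11 (0.23). TGF-beta and BMP genes followed with 11 of 16 (0.10), and fin markers with 5 of 7 (0.08).

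The opposite order held elsewhere. Actin cytoskeleton genes were highest in CK1 for 24 of 28 members, with a median log2 difference of -0.12, lipid and sterol genes for 19 of 24 (-0.20), and cell cycle genes for 7 of 9 (-0.18). Ribosomal protein rows were highest in CK1 for 77 of 116 (-0.17), members of the translation list for 16 of 22 (-0.10) and glycolytic enzymes for 10 of 14 (-0.09). Collagen-processing genes sided with these, highest in CK1 for 12 of 18 (-0.11), although collagen chains did not. Fibroblast markers were mixed, with 8 of 15 highest in CK3 and 5 in CK1 (0.07). Rescaling the libraries by size factors shifted the median of all named rows to -0.05 and kept the sign for the groups named here. It brought the positive medians of fibroblast, fin and TGF-beta and BMP genes close to 0 (0.0014, 0.02 and 0.04) and took those of ribosomal, actin, translation, collagen-processing and glycolytic genes to -0.24, -0.18, -0.17, -0.17 and -0.15. Members of a list share libraries, and the lists were picked with these values known, so the counts are a description of 3 libraries.

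**Figure D3:**
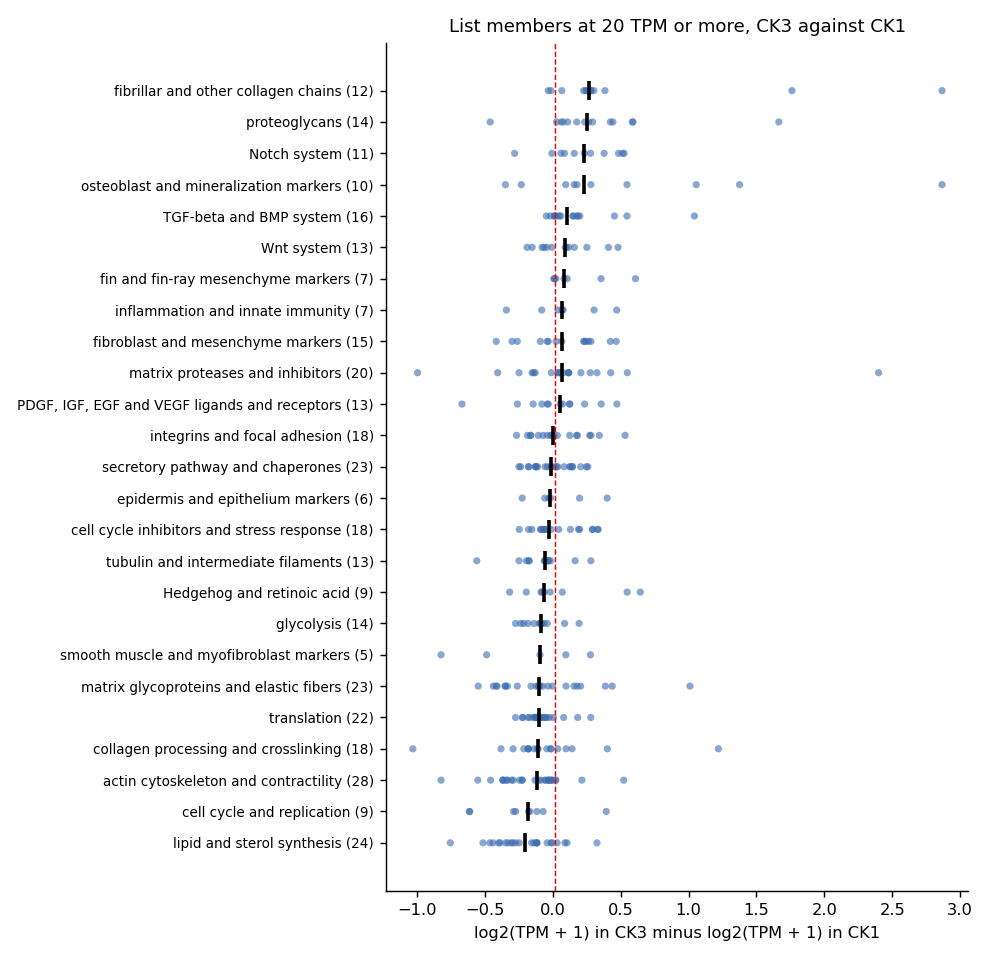
Difference in log2(TPM + 1) of CK3 minus CK1 for each list with 5 or more members at a mean of 20 TPM or more, with single members as points, the list's median as a black bar and the median of all named rows as a dashed line. Collagen chains (0.27) and proteoglycans (0.25) lie above 0, and lipid and sterol genes (-0.20) and cell cycle genes (-0.18) below it.

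**Figure D4:**
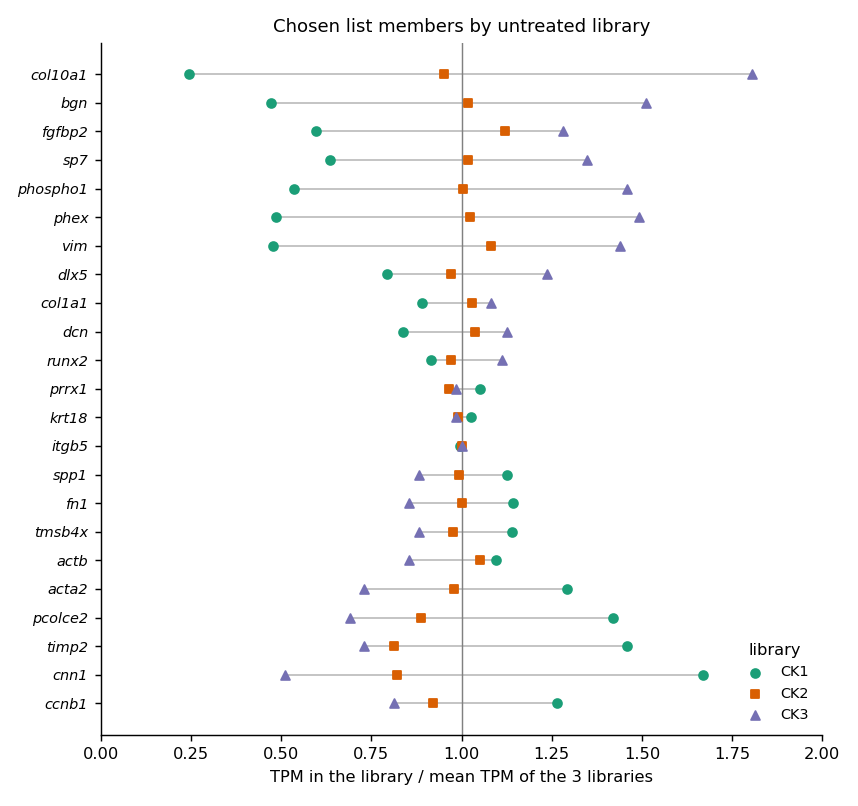
TPM of 23 list members in each untreated library, divided by the gene's mean over the 3 libraries (no unit, axis from 0), with the genes chosen after their values were seen to show both orders. Col10a1, biglycan (bgn) and Sp7 are lowest in CK1 and highest in CK3, Timp2 and calponin 1 (cnn1) are highest in CK1, and keratin 18 (krt18) and Itgb5 stay near 1.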

How the data were processed

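RNA-seq was run on total RNA of TCCF2022 cells, and the deposited table gives TPM per assembled gene in 6 libraries, of which the 3 CK libraries were used. Per the study's methods the authors assembled the reads without a reference genome and computed TPM, a value scaled to gene length and library total, with RSEM. The submitters' processing notes name RSEM 1.3.3, TopHat2 2.1.1, Cufflinks 2.2.1 and DESeq2 1.24.0, of which TopHat2 and Cufflinks work on a reference genome, so the steps behind this table are uncertain. The row names are those of a reference-free assembly. Depth per library was not given beside the TPM values. The authors' group means and the treated libraries were not used, and 0 columns belonged to samples outside the series. No test was run, since the comparison is among 3 libraries of 1 group.

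Rows were ranked by mean TPM of the CK libraries, and the SD and CV (n = 3) were computed with Python 3.11.15, pandas 2.3.3 and numpy 2.4.6. Log2 values carry a pseudocount of 1 TPM. The script was tested on simulated data. Members of 36 gene lists, 15 of lineages and 21 of programs, were matched by Swiss-Prot gene name. Collagen chains were matched by protein name instead. By protein name, 69 rows were added and 37 left out, and the row with the highest mean stood for a member. Of 896 distinct members 654 matched a row and 619 were at 1 TPM or more. A symbol also matched names with an a or b suffix, so the rows of a member can be those of paralogs. Hoxa13, for example, took in hoxa13a and hoxa13b. A gene name rests on the authors' similarity searches against other species. Rows named in the text were the 40 with the highest mean, the 6 highest members of each list and any lineage member, and the 15 with the largest CV at a mean of 20 TPM or more, beside exceptions stated as such. The members and the lists were chosen with earlier results of these data known. Alternatives were each library left out, other limits on low values, rescaling by size factors and TPM summed over the rows of a member.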

Additional observations from a re-analysis of the deposited data

How the results depend on the processing

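No paired analysis was possible because no test compared groups. Raising the lower limit from 1 TPM to a mean of 5 TPM left 15577 rows in place of 41399, and 24305 rows reached 1 TPM in each library. That limit lowered the median CV from 0.343 to 0.0926. It left 3 pericyte, 1 skeletal muscle, 5 adipocyte, 2 endothelial, 0 leukocyte, 3 pigment, 3 glia, 0 neuron, 2 pluripotency, 8 FGF and 19 Wnt genes, while 4 neuron markers passed 0.5 TPM. As a percent of named rows only, the 100 most abundant rows held 36.0%. Leaving out each library in turn gave 39509 to 40211 rows at 1 TPM or more, a top-100 share of 32.1% to 33.3%, a median CV of 0.208 to 0.250, a median SD of log2 values of 0.224 to 0.265 in place of 0.350, and 614 to 617 list members at 1 TPM or more, and it kept 37 to 40 of the 40 leading rows. The lowest CV and SD came without CK3. A CV over a pair of libraries is not the same quantity as one over 3, so part of that shift follows from the number of libraries. TPM summed over all rows of a member moved 167 of 654 single-gene means by more than their SD. For Plvap the summed mean was 4.93 TPM, over 1.5 times its highest row. Among genes named in the text, the summed means were 20.4 TPM for titin, 21.1 TPM for vimentin, 1172 TPM for Tpm4, 47.4 TPM for desmoplakin, 15.9 TPM for Adcy2, 17.1 TPM for Adcy6, 1673 TPM for Timp2, 249.9 TPM for biglycan, 113 TPM for Klf2, 99.8 TPM for Myc, 7.27 TPM for Col2a1, 1170.1 TPM for Calr, 709.8 TPM for Atf4, 775 TPM for Serpinh1, 379 TPM for P4ha1, 963 TPM for Pcolce, 152 TPM for Fgfr1, 147 TPM for Dld, 119.5 TPM for Mef2c, 102 TPM for Nrp1, 73.4 TPM for Gja1, 66.3 TPM for Hoxa13, 62.2 TPM for Ano5, 61.8 TPM for Ccnd2, 52.1 TPM for Rrm2, 57.2 TPM for Fzd6, 48.6 TPM for Lpl, 12.2 TPM for Spry2, 8.12 TPM for Ltk, 4.69 TPM for Tert, 1.66 TPM for Klf5 and 1.36 TPM for Piwil1, each over 1.5 times its highest row. Rescaling by size factors of 0.987, 0.993 and 1.03 was chosen for the comparison of CK3 with CK1 after seeing the data. It reversed the median log2 difference of all named rows, from 0.01 to -0.051, and that of growth factor ligands and receptors, from 0.05 to -0.011. The study gives depth as an average over libraries. Reads per row cannot be had from TPM, which limits what can be said of rows near 1 TPM.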

Other observations

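Hox genes were looked at after their levels were seen. Of 19 rows with a Hox gene name, 14 were at 1 TPM or more and 5 at 10 TPM or more. Medians below are over rows, and the names hoxb9a and hoxc9a each had more than 1 row, all at means of 2.42 TPM or less. The 6 rows of groups 12 and 13, which pattern the tail end of the body and the far ends of appendages, had a median of 16.2 TPM, beside 2.42 TPM for 9 rows of groups 9 to 11 and 6.43 TPM for 4 rows of groups 1 to 8. A paralog of Hoxa13, hoxa13b, was at 22.0, 23.1 and 25.8 TPM (23.6 ± 1.99), hoxa10b at 14.6, 15.9 and 19.0 TPM (16.5 ± 2.28) and hoxa3a at 10.8, 11.3 and 12.4 TPM (11.5 ± 0.82). Of the b cluster, hoxb13a was at 0.56, 1.01 and 1.04 TPM, below the limit on average. No d cluster name appeared among the 19 rows.

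Genes through which Forskolin acts were also looked up in the untreated cells, from a list of 42 cyclic AMP genes chosen after the data were seen. By Swiss-Prot name 32 matched, 28 of them at 1 TPM or more, 10 at 10 TPM or more and none at 100 TPM or more, with a median of 6.47 TPM. Over the 36 other lists 619 of 654 matched members were at 1 TPM or more. Of all named rows, 30.6% were at 10 TPM or more, so these counts do not set the list apart. The G protein genes Gnas, Gnai1, Gnai2 and Gnai3 matched no row. Of the adenylate cyclases, which make cyclic AMP, Adcy6 was at 8.54, 12 and 5.53 TPM (8.69 ± 3.24) and Adcy2 at 5.77, 7.92 and 8.11 TPM (7.27 ± 1.2996), while Adcy8 was listed at 0 in all 3 libraries. The catalytic subunit of protein kinase A, Prkaca, was at 33.6, 33.0 and 33.9 TPM (33.5 ± 0.49), and the regulatory subunit Prkar1a at 51.1, 58.6 and 53.2 TPM (54.3 ± 3.89). The transcription factor Crem was at 30.6, 32.7 and 33.1 TPM (32.2 ± 1.32), and the phosphodiesterase Pde4b, which degrades cyclic AMP, at 30.1, 26.2 and 27.5 TPM (27.9 ± 1.97). The 4 rows of Adcy6 summed to 17.1 TPM and the 4 of Adcy2 to 15.9 TPM.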
